A study of Mus musculus with 8 samples.

Results

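A set of 49 genes of mitosis and of the G2/M transition was followed across 8 expression arrays of 2 mouse cell lines with and without the germ cell protein PGC7. The genes were chosen by symbol, as known genes of cell division, with earlier results of these data known. Each was represented by the brightest tested probe set annotated to its symbol alone. Of the 49 genes, 48 had such a probe set and were tested, and Ccnb1 was not analysed here. Their 114 probe sets were among 45101 on the array. Of the 114, 102 were among the 25236 probe sets tested, which stand for 11643 named genes.

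Total RNA of cultured cells was measured on Affymetrix expression arrays, 1 array per sample. NIH3T3 is a mouse embryonic fibroblast line and B16F10 is a mouse melanoma line, and each had been infected with a virus carrying PGC7, also known as Stella or Dppa3. By title, NIH3T3 had 1 control array and 3 PGC7 arrays (an uncloned culture, clone 1 and clone 2). B16F10 likewise had 1 control array and 3 clones with PGC7. In the genotype field, PGC7 samples were written as PGC8 and as pre-cloned, clones included, so titles set the groups. Whether the controls received an empty virus, which promoter drove PGC7 and when arrays were hybridised are not given in the sources used here. Line and array batch therefore cannot be told apart. Each line had a single control, so each p-value of a change with PGC7 rests on the spread among PGC7 arrays, which are clones of a line and a mixture rather than independent cell populations.

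The genes act in sequence through the end of the cell cycle. Cyclins A and B with Cdk1, released by Cdc25 phosphatases, drive entry into mitosis, and the transcription factor Foxm1 switches on many of the genes needed for it. Kinases, motors and condensin then shape the spindle and the chromosomes, the spindle checkpoint holds anaphase until kinetochores are attached, and Cdc20 with the anaphase-promoting complex ends the block before cytokinesis divides the cell. Many of their promoters hold CCAAT boxes and a cell cycle genes homology region, a short TTTGAA-like element, through which they are held silent in resting cells and switched on late in the cycle.

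Promoters are shown first because the genes share these elements, a feature that played no part in choosing them. RefSeq promoters on GRCm38.p6, each of 300 bases (250 before and 50 after the start), were found for 41 of the 49 genes, with 44 entries in all. Ccna2, Cdc25c, Foxm1, Aurkb, Incenp, Tpx2, Kif20a and Smc4 had no entry. CCAAT was searched on both strands, its reverse complement being ATTGG. The homology element was searched on both strands as TTTGAA, whose reverse complement is TTCAAA, or in its variant form TTTAAA, a palindrome. Letters that read CCAATTGG count as 2 overlapping CCAAT matches. CCAAT was present in 33 of the 44 promoters (75.0%), against 37.4% of all 32851 promoters in the table. At least 2 CCAAT matches were found in 21 (47.7%), against 11.7%. TTTGAA was present in 32 (72.7%), against 17.9%, while TTTAAA was present in 9 (20.5%), against 13.2%. CCAAT together with either form of the homology element was found in 30 (68.2%), against 10.7%. In the 36 promoters of DNA replication genes, CCAAT was present in 61.1% but TTTGAA in 11.1%. A match is a description of letters and not a binding site.

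The 250 bases before the start of 6 genes are printed 5′ to 3′ on the gene's strand, with matches of either strand in capitals. Ccnb2 (chr9:70421555-70421804, minus strand) shows 3 CCAAT boxes whose first bases lie 87, 54 and 21 bases before the start, 33 bases apart. Cdc20 (chr4:118437344-118437593, minus strand) shows a TTTGAA 18 bases before the start between CCAAT boxes at 53 and 8. Ube2c (chr2:164769679-164769928, plus strand) and Aurka (chr2:172370571-172370820, minus strand) are genes whose change with PGC7 was called different between the lines in the reported setting. That call was kept in 7 (Ube2c) and 5 (Aurka) of 15 alternative settings. Ube2c holds 6 CCAAT matches and a reversed homology element 29 bases before the start. Aurka has CCAAT boxes at 51 and 19, and its TTTGAA lies 32 bases after the start, outside the printed stretch. Ncapd2 (chr6:125191587-125191836, minus strand) carries its 3 CCAAT boxes in the reverse orientation and fell in NIH3T3. Mad2l1 (chr6:66534971-66535220, plus strand) also fell in NIH3T3, and its printed stretch holds none of these letters.
Ccnb2: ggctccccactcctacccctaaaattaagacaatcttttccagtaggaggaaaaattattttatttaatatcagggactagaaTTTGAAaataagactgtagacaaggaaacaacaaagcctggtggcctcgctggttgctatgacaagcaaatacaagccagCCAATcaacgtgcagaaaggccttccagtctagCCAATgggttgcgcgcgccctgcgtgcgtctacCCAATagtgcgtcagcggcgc
Cdc20: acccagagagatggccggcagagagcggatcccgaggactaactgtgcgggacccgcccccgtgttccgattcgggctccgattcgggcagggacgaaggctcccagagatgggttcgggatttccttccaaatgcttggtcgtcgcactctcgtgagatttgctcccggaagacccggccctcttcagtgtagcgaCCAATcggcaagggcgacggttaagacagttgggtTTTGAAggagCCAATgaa
Ube2c: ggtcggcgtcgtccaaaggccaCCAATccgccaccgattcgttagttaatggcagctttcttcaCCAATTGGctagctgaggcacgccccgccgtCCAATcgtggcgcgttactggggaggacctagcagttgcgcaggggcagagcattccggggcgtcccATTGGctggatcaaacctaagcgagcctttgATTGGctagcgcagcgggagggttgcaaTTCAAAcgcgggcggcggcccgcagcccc
Aurka: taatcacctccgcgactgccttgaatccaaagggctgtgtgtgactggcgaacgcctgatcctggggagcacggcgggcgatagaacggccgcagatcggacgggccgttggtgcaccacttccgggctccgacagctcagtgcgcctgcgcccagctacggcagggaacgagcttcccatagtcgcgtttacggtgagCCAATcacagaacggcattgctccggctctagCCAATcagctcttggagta
Ncapd2: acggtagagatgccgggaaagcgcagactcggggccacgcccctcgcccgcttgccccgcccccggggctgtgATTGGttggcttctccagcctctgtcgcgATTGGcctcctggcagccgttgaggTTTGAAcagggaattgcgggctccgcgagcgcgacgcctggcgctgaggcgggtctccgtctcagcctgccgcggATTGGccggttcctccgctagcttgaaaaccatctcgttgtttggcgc
Mad2l1: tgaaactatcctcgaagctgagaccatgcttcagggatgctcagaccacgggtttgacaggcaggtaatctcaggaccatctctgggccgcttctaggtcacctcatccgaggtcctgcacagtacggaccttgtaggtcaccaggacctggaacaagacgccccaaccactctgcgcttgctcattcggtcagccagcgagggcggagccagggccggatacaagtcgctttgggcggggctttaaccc

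Signals below are in arbitrary units after every array was scaled to a trimmed mean of 500, and changes are differences of log2(signal + 9), which understate changes of dim genes. A change is called at an adjusted p under 0.05 in limma's moderated test, with Benjamini-Hochberg adjustment over all tested probe sets. The deposited NIH3T3 arrays had trimmed means of 143 to 189 against 500 in B16F10. Probe sets of the poly-A spikes, control RNAs meant to be added before labelling, stood 0.24 to 0.49 log2 units below control in the NIH3T3 PGC7 arrays and 0.40 to 0.59 above control in the B16F10 PGC7 arrays after scaling. The part of this shift in the results was not tested, and counts scaled to the spikes are given beside those scaled to all probe sets. Spike scaling here set the spikes of each PGC7 array level with those of its own line's control. Spikes were not set equal between the lines. The lines carried their labelled markers: the summed signal of 12 melanocyte markers was 682 to 985 in NIH3T3 and 117200 to 159600 in B16F10, and that of 12 fibroblast markers was 155300 to 211200 against 23390 to 27430. Within NIH3T3 the fibroblast sum was 211200 in the control and 155300 to 173800 with PGC7, and within B16F10 the melanocyte sum was 117200 in the control and 137800 to 159600 with PGC7. Sums of 7 leukocyte markers (141 to 572) and 8 epithelial markers (214 to 486) were low on all 8 arrays.

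Mitosis genes sat below control in most PGC7 arrays of both lines, although with spike scaling the NIH3T3 median turned to 0.06. In NIH3T3, 31 of the 48 genes were lower than control in all 3 PGC7 arrays, against 38.3% of all tested probe sets, and 6 were higher in all 3, against 28.9%. In B16F10, 41 of 48 were lower in all 3 clones, against 32.2%, and only Ccnb2, Pttg1 and Ndc80 were higher in all 3, against 37%. The shift was small: the median change of the 48 genes was -0.28 in NIH3T3, where that of all tested probe sets was -0.07, and -0.28 in B16F10, where it was 0.02. Single genes spanned -0.83 to 0.40 in NIH3T3, and -0.61 to 0.41 was the span in B16F10. Markers of the lines moved beside them. The 12 fibroblast markers had a median change of -0.74 in NIH3T3, with 4 called lower, against 6.32% of all tested probe sets. Of the 12, 7 lay below control in all 3 NIH3T3 arrays and 3 lay above it. The 12 melanocyte markers had a median change of 0.32 in B16F10, with 1 called higher, against 0.923%. Their part in the result was not tested. In bulk RNA, fewer dividing cells and less RNA per dividing cell cannot be told apart. Of 4975 genes in the signal range of the 48, a range set after the data were seen, 34.4% lay below control in all 3 NIH3T3 arrays and 42.0% in all 3 B16F10 clones.

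In NIH3T3, 10 of the 48 genes fell (Foxm1, Melk, Mad2l1, Ttk, Cenpf, Kif20a, Kif23, Ncapd2, Smc4 and Mki67), against a background of 6.32% of tested probe sets called lower and 12.8% called in either direction. None of the 48 rose by limma's adjusted test, against 6.47%, and 19 had an unadjusted p under 0.05 in either direction. Among the 4975 genes of the same signal range, 7.88% were called lower, 11.1% higher and 19% in either direction. The 48 genes had 20.8% called, all of them lower. In B16F10, limma called 0 of the 48 in either direction, against 1.19% of all tested probe sets (0.923% higher and 0.265% lower), although 18 had an unadjusted p under 0.05. The NIH3T3 count rested on choices in the test: it was 0 with spike scaling or with the 4 NIH3T3 arrays fitted alone, 1 with a variance prior free of trend, and 5, 6 and 6 without B16F10 clone 1, B16F10 clone 2 and NIH3T3 clone 2. The B16F10 count of lower genes was 33 with spike scaling, 11 with the 4 B16F10 arrays fitted alone and 6 without the uncloned NIH3T3 array. Over all tested probe sets these settings called 2826, 2196 and 1835 in B16F10, with 5.24%, 62.4% and 63.8% of them higher. In NIH3T3, spike scaling called 3546 probe sets (81.6% higher), the 4 arrays alone 1151 and the prior free of trend 2127. Leaving out B16F10 clone 1, B16F10 clone 2 and NIH3T3 clone 2 gave 1999, 2399 and 2488.

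**Figure D1:**
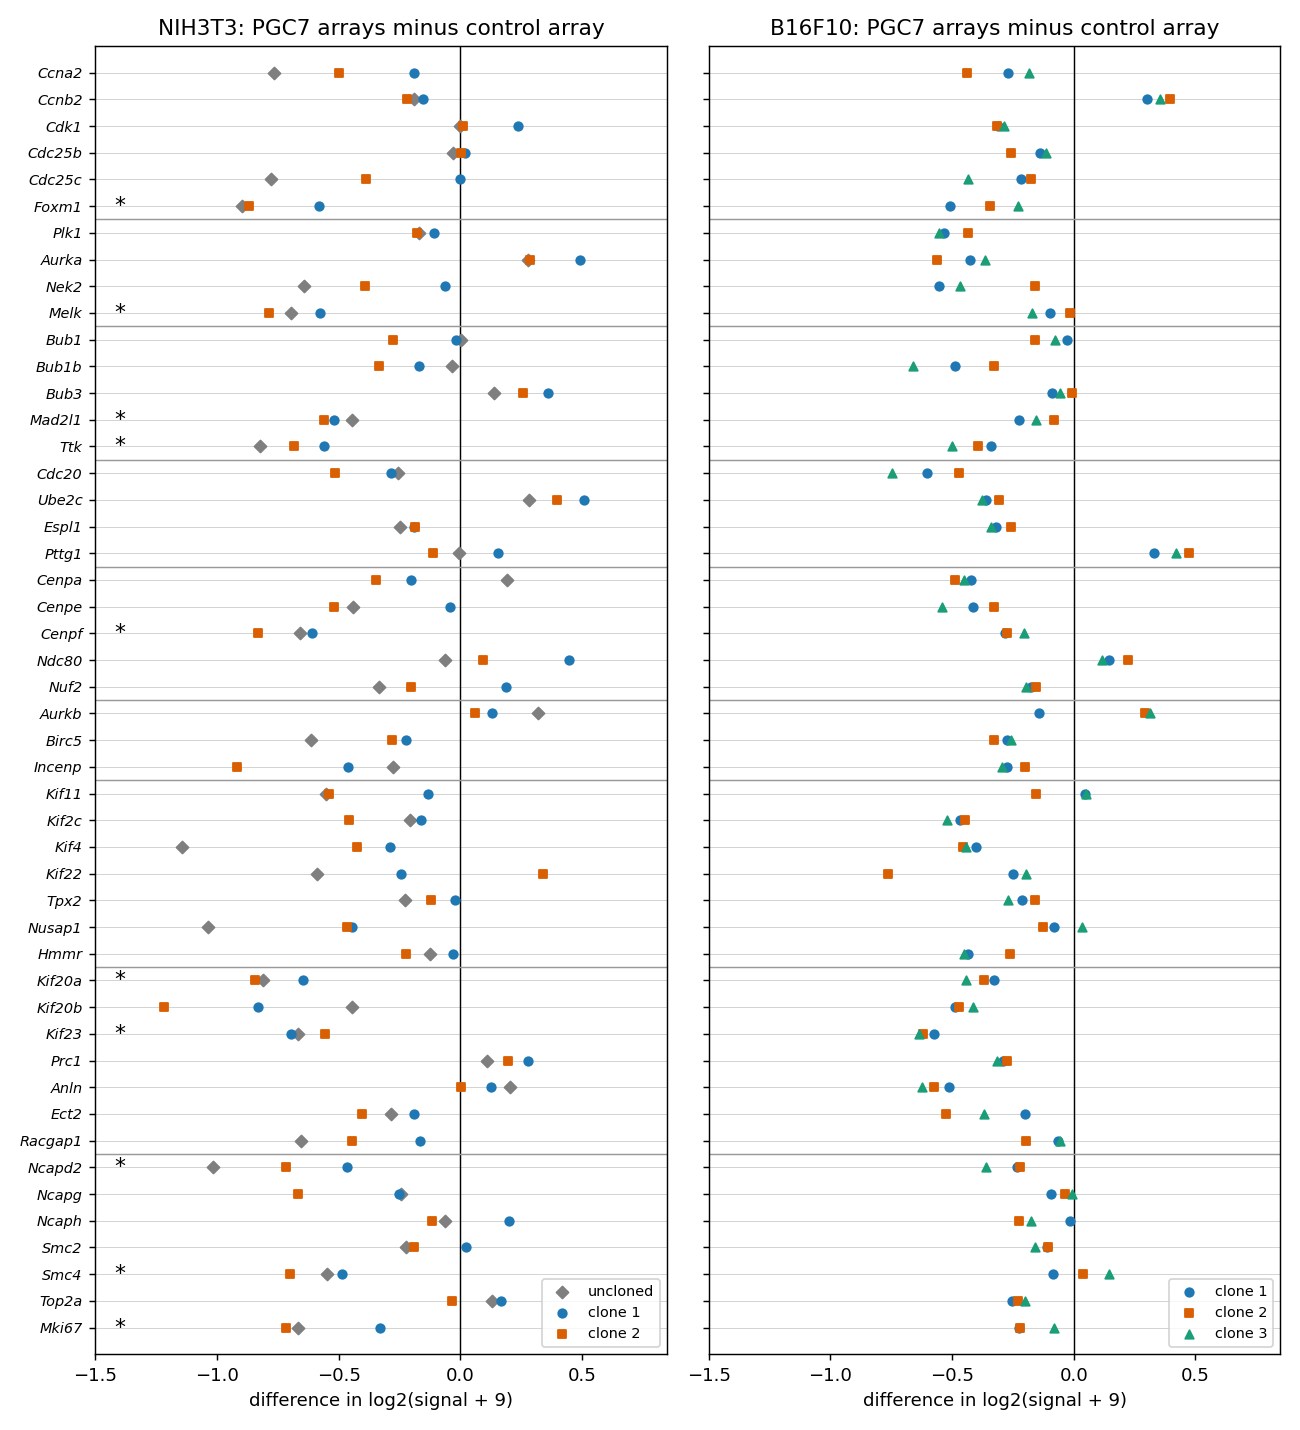
Log2 change from the line's control of each of 48 mitosis and G2/M genes (rows, grouped by role) in every PGC7 array, NIH3T3 on the left and B16F10 on the right. Most points lie left of 0 in both panels (31 genes in all 3 NIH3T3 arrays and 41 in all 3 B16F10 clones), with Ube2c and Aurka to the right of 0 in NIH3T3 and Ccnb2 and Pttg1 to the right in B16F10. Scaled to the spikes, 11 genes lay below control in all 3 NIH3T3 arrays.

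Among the genes of Cdk1 activation, Foxm1 moved furthest. Foxm1, the transcription factor of the G2/M program, read 1320 in the NIH3T3 control and 704, 879 and 719 in the uncloned, clone 1 and clone 2 arrays. All 3 lay below control, and it fell by 0.78 ± 0.18 (SE), or 1.72-fold (limma, adjusted p = 0.0281). Its B16F10 signals were 1091 in the control and 764, 858 and 931 in clones 1 to 3, a change of -0.36 that was not called (adjusted p = 0.409). The other 2 Foxm1 probe sets had NIH3T3 changes of -0.44 and -0.18, neither called.

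The cyclins went their own ways. Ccna2, cyclin A, read 3453 in the NIH3T3 control and 2029, 3022 and 2445 with PGC7 in the same order of arrays, and 8004 in the B16F10 control against 6644, 5903 and 7054. It lay below control in all 6 PGC7 arrays, but neither -0.48 ± 0.20 in NIH3T3 (limma, adjusted p = 0.154) nor -0.30 in B16F10 (0.55) was called. Ccnb2, cyclin B2, read 1173 against 1026, 1054 and 1007 in NIH3T3, where all PGC7 arrays were lower. Its B16F10 signals were 3843 against 4745, 5058 and 4912, where all clones were higher. The changes of -0.19 and 0.35 ± 0.11 were not called, nor was their difference of -0.54 ± 0.16 (adjusted p = 0.0845). Ccnb2 was the only gene of the 48 that lay below control throughout NIH3T3 and above it throughout B16F10.

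Cdk1, the mitotic kinase itself, read 3920 in the NIH3T3 control and 3912, 4625 and 3946 with PGC7, so that the groups overlapped. Its B16F10 signals were 8867 in the control and 7142, 7137 and 7265 in the clones, all lower and close together (-0.30 ± 0.12, adjusted p = 0.284). Cdc25b, a phosphatase that activates Cdk1, read 1268 against 1240, 1284 and 1269 in NIH3T3, a change whose 95% interval ran from -0.30 to 0.29. In B16F10 it read 1517 against 1378, 1267 and 1401, a change of -0.17 (limma, adjusted p = 0.6). Cdc25c, its relative, read 551 against 318, 550 and 420 in NIH3T3 and 1663 against 1431, 1470 and 1228 in B16F10. Clone 1 of NIH3T3 thus sat at its control while the other arrays were lower, and neither change was called.

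Of the mitotic kinases, Melk and Aurka lay on opposite sides of the NIH3T3 control. Melk, a kinase that peaks in mitosis, read 1194 in the NIH3T3 control and 735, 797 and 688 with PGC7, and fell by 0.69 ± 0.14, or 1.61-fold (limma, adjusted p = 0.0176). B16F10 signals were 2016 against 1885, 1997 and 1791, a change of -0.09 (adjusted p = 0.82). Aurka, the centrosome and spindle pole kinase, read 2189 against 2658, 3083 and 2676 in NIH3T3, with all PGC7 arrays higher. In the melanoma line it read 3040 against 2258, 2055 and 2360, with all clones lower. Neither 0.35 ± 0.14 (adjusted p = 0.132) nor -0.45 ± 0.14 (0.17) was called within a line, but the difference of 0.80 ± 0.20 between the lines was (0.0458). Plk1, the kinase that triggers mitotic entry and spindle assembly, read 1608 against 1428, 1492 and 1421 in NIH3T3 and 3384 against 2336, 2501 and 2303 in B16F10. It was lower in all 6 PGC7 arrays, with changes of -0.15 and -0.51 ± 0.12, without a call (adjusted p = 0.45 and 0.0923). Nek2, a centrosome kinase, was also lower in all 6, with changes of -0.36 and -0.39 that were not called.

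The spindle checkpoint genes held 2 of the NIH3T3 falls. Mad2l1, the checkpoint protein that binds Cdc20, read 5132 in the NIH3T3 control and 3768, 3583 and 3475 with PGC7, and fell by 0.51 ± 0.11, or 1.42-fold (limma, adjusted p = 0.0186). Ttk, the kinase that starts checkpoint signalling, read 866 against 486, 584 and 536 and fell by 0.69 ± 0.16, or 1.61-fold (adjusted p = 0.0276). For both genes the PGC7 arrays lay close together and clear of the control. In B16F10, Mad2l1 read 8727 against 7461, 8246 and 7833, and Ttk read 1479 against 1167, 1123 and 1043. All clones were lower, with changes of -0.15 and -0.41 ± 0.16 that were not called. Bub1b, the checkpoint protein BubR1, read 1286 against 1257, 1143 and 1019 in NIH3T3 and 2705 against 1926, 2154 and 1710 in B16F10, where its change of -0.49 ± 0.17 was not called (adjusted p = 0.223). Bub3, which carries Bub1 and Bub1b to kinetochores, read 6052 against 6667, 7772 and 7243 in NIH3T3, above control in all 3 arrays (0.25 ± 0.11, adjusted p = 0.178). It read 9310 against 8743, 9256 and 8966 in B16F10, just below control. Bub1, a checkpoint kinase, had differences of -0.10 and -0.09, neither called.

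None of the partners of the anaphase-promoting complex was called within a line by limma, and in NIH3T3 Cdc20 and Ube2c lay on opposite sides of control. Cdc20, which activates the complex, read 11540 in the NIH3T3 control and 9667, 9480 and 8063 with PGC7, and 11040 in the B16F10 control and 7274, 7963 and 6574 in the clones. It lay below control in all 6 arrays, with changes of -0.35 (adjusted p = 0.146) and -0.61 ± 0.14 (0.0934). Ube2c, the ubiquitin-conjugating enzyme of the complex, read 6828 against 8312, 9712 and 8985 in NIH3T3, all higher (0.40 ± 0.11, adjusted p = 0.0523). The B16F10 signals were 10240 against 7978, 8284 and 7883, all lower (-0.35 ± 0.11, adjusted p = 0.188). The difference between the lines was 0.74 ± 0.16 and was called (adjusted p = 0.0294). Pttg1, the securin that inhibits separase, read 5065 against 5047, 5641 and 4689 in NIH3T3, on both sides of control. It read 4632 against 5833, 6442 and 6209 in B16F10, all higher (0.41 ± 0.13, adjusted p = 0.175). Espl1, separase, was lower in all 6 PGC7 arrays, with changes of -0.21 and -0.30 that were not called.

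At centromere and kinetochore, Cenpf was the gene that was called. Cenpf, a large kinetochore and nuclear matrix protein, read 2723 in the NIH3T3 control and 1721, 1785 and 1526 with PGC7, and fell by 0.70 ± 0.13, or 1.62-fold (limma, adjusted p = 0.0104). Its signals in B16F10 were 3112 against 2558, 2575 and 2704, all lower but not called (-0.25, adjusted p = 0.409). Of its other tested probe sets, 1 went the other way in NIH3T3, at 0.72 (adjusted p = 0.243), and 1 the same way, at -1.08 (0.0759), neither called. Ndc80, the microtubule-binding kinetochore protein, read 688 against 659, 939 and 735 in NIH3T3 and 1093 against 1210, 1280 and 1185 in B16F10. It was higher in all 3 B16F10 clones but on both sides of control in NIH3T3, and both changes were 0.16. Cenpa, the centromeric histone, Cenpe, a kinetochore motor, and Nuf2, the partner of Ndc80, had changes between -0.33 and -0.12 in NIH3T3 and between -0.45 and -0.18 in B16F10, none called.

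The chromosomal passenger complex corrects kinetochore attachments, and none of its 3 genes was called by limma in either line. Birc5, survivin, read 4125 in the NIH3T3 control against 2696, 3532 and 3398, and 10810 in the B16F10 control against 8936, 8622 and 9054. It was lower in all 6 PGC7 arrays (-0.37, adjusted p = 0.148, and -0.29). Incenp, the scaffold of the complex, was lower in all 6 too, with changes of -0.55 (adjusted p = 0.122) and -0.26. Aurkb, its kinase, read 1289 against 1611, 1414 and 1344 in NIH3T3 and 3568 against 3233, 4370 and 4436 in B16F10. Through this probe set Aurkb was above control in every PGC7 array but B16F10 clone 1, with changes of 0.17 and 0.15. Its other tested probe set lay below control in all 6 PGC7 arrays, with changes of -0.22 and -0.27 that were not called either.

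The 7 spindle motors and microtubule-binding proteins had a median change of -0.28 in NIH3T3 and -0.38 in B16F10, and none was called. Nusap1, which bundles spindle microtubules, had the largest NIH3T3 value (-0.65, limma, adjusted p = 0.0928), beside -0.06 in B16F10. Kif4, a chromosome-bound motor, read 775 against 346, 633 and 575 in NIH3T3 and 1191 against 899, 867 and 873 in B16F10. All 6 PGC7 arrays were lower, with the uncloned array the lowest. Kif2c, which depolymerises microtubules at centromeres, Tpx2, the activator of Aurka, and Hmmr, a spindle protein, were lower in all 6 arrays as well. Their NIH3T3 changes spanned -0.28 to -0.12, and those in B16F10 -0.48 to -0.21. Kif11, the motor that separates spindle poles, was lower in all 3 NIH3T3 arrays (-0.41) but on both sides of control in B16F10. Kif22, a chromosome-arm motor, ran in NIH3T3 from 1611 to 3071 around a control of 2427.

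The cytokinesis genes included the fall with the smallest adjusted p of the 48. Kif20a, the central spindle motor MKLP2, read 2238 in the NIH3T3 control and 1272, 1428 and 1244 with PGC7, and fell by 0.77 ± 0.13, or 1.70-fold (limma, adjusted p = 0.00773). Kif20a and Cenpf were the 2 genes at least 1.5-fold below control in all 3 NIH3T3 arrays, against 11.3% of all tested probe sets. In B16F10, Kif20a read 2819 against 2246, 2184 and 2073, all lower (-0.38, adjusted p = 0.221). Kif23, the motor subunit of centralspindlin, read 1047 against 657, 644 and 709 in NIH3T3 and fell by 0.64 ± 0.13, or 1.56-fold (adjusted p = 0.0156). In B16F10 it read 3242 against 2172, 2106 and 2082, a nearly equal change of -0.61 ± 0.13 that missed the threshold (adjusted p = 0.0702). The difference between the lines was -0.03, with a 95% interval of -0.45 to 0.39. The near-equal change held for the brightest probe set only. Through its other tested probe set Kif23 changed by -1.05 in NIH3T3 and -0.11 in B16F10, a difference of -0.94, none of them called.

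Kif20b, a related motor, read 1715 against 1256, 959 and 732 in NIH3T3 and 2347 against 1672, 1693 and 1758 in B16F10. Its NIH3T3 change of -0.83 ± 0.25 was the largest of the 48 but was not called (limma, adjusted p = 0.0615), and its 3 PGC7 arrays lay far apart. Anln, anillin, the scaffold of the contractile ring, read 5953 against 6858, 6504 and 5963 in NIH3T3, at or above control. In B16F10 it read 9103 against 6385, 6112 and 5909, well below it (-0.57 ± 0.11, adjusted p = 0.0588). The difference of 0.68 ± 0.16 was called (adjusted p = 0.0412). Prc1, which bundles midzone microtubules, had the same directions, with 2078 against 2242, 2522 and 2379 in NIH3T3 and 3153 against 2578, 2609 and 2534 in B16F10. Its difference of 0.49 was not called (adjusted p = 0.123). Ect2, which activates RhoA at the division plane, and Racgap1, its centralspindlin partner, were lower in all 6 arrays without a call.

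Condensin and chromosome structure held 3 of the NIH3T3 falls. Ncapd2, a condensin I subunit, read 1939 in the NIH3T3 control and 954, 1403 and 1176 with PGC7, and fell by 0.73 ± 0.19, or 1.66-fold (limma, adjusted p = 0.0411). Smc4, the condensin core ATPase subunit, read 6867 against 4702, 4897 and 4222 and fell by 0.58 ± 0.13, or 1.49-fold (adjusted p = 0.0229). All 3 Smc4 probe sets were called lower, the others at -0.79 and -0.78. Mki67, the proliferation antigen Ki-67 that coats mitotic chromosomes, read 4849 against 3051, 3860 and 2950 and fell by 0.57 ± 0.16, or 1.49-fold (adjusted p = 0.049). The controls lay above all PGC7 arrays for the 3 genes. In B16F10, Ncapd2 read 5184 against 4406, 4445 and 4036 (-0.27), and Mki67 read 9115 against 7810, 7830 and 8621 (-0.17), all lower. Smc4 read 5992 against 5654, 6161 and 6621 in B16F10, on both sides of control (0.03), and its difference between the lines of -0.61 was not called (adjusted p = 0.0861). Ncapg, a condensin I subunit, was lower in all 6 PGC7 arrays (-0.39 and -0.04). Ncaph, which closes the condensin I ring, Smc2, the partner of Smc4, and Top2a, the topoisomerase that untangles sister chromatids, had NIH3T3 changes of 0.01, -0.13 and 0.09, none called.

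Setting the lines side by side, 27 of the 48 genes were below control in all 6 PGC7 arrays, against 13.4% of all tested probe sets. Aurka, Bub3, Ube2c, Prc1 and Anln were above control throughout NIH3T3 and below it throughout B16F10, although Anln in NIH3T3 clone 2 was at control (5963 against 5953). The difference of the changes was called for 3 of the 48 genes, all higher in NIH3T3 than in B16F10 (Aurka, Ube2c and Anln), against 3.08% of tested probe sets (6.88% in either direction), and for 0 in the other direction, against 3.8%, while 9 had an unadjusted p under 0.05 in either direction. None of the 3 was called with no filter, with values as deposited, with a variance prior free of trend or without any 1 of the B16F10 clones, and 1 was called without NIH3T3 clone 1 or clone 2. With spike scaling 21 were called, where 6738 of the probe sets tested in that setting were called, 94.7% of them higher. Among the 4975 genes of the same signal range, trimmed-mean scaling gave 6.19% called higher and 11.1% in either direction.

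**Figure D2:**
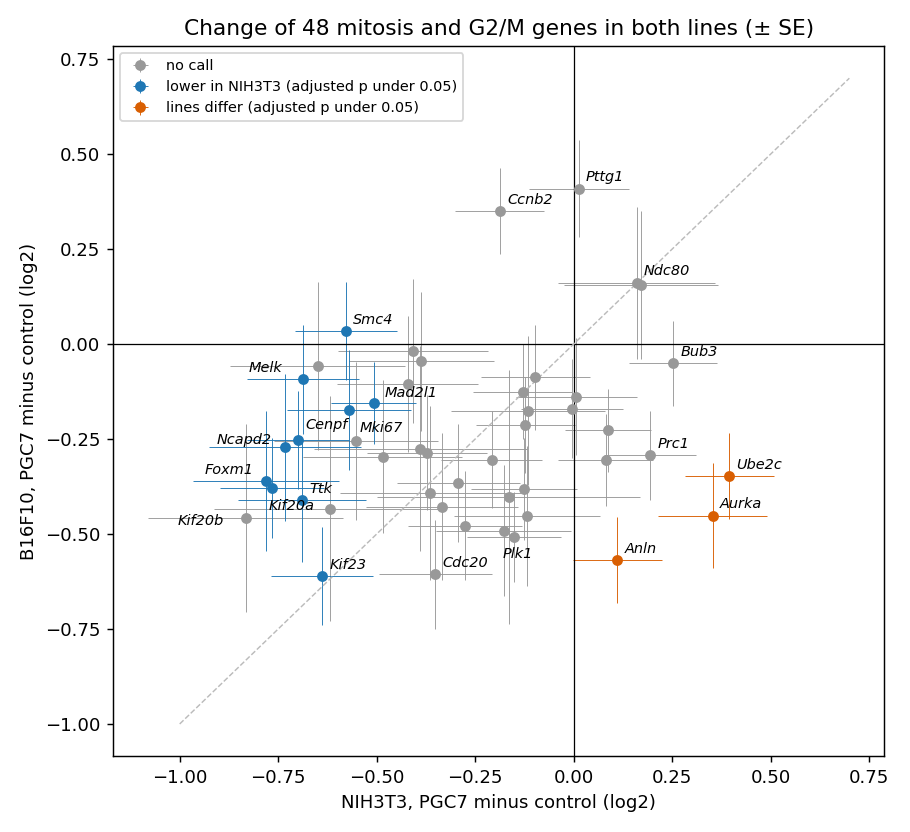
Log2 change with PGC7 in NIH3T3 (horizontal) against B16F10 (vertical) for 48 genes, with standard errors, from signals scaled to a trimmed mean. The dashed line marks equal change, blue genes fell in NIH3T3, and Aurka, Ube2c and Anln (orange) lie at lower right, with differences of 0.80, 0.74 and 0.68. With spike scaling the NIH3T3 median moves to 0.06.

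Among the NIH3T3 cultures, clone 1 stood closest to control. It was above clone 2 for 45 of the 48 genes (median difference 0.21), where 51.4% of all tested probe sets were. It was above the uncloned array for 37 genes, and the uncloned array was above clone 2 for 24. The uncloned array had a median change from control of -0.27, clone 1 had -0.16 and clone 2 had -0.37, whereas each B16F10 clone had -0.26. The range over the 3 PGC7 arrays had a median of 0.26 per gene in NIH3T3 and 0.14 in B16F10, below those of all tested probe sets (0.45 and 0.28) and close to those of genes in the same signal range (0.29 and 0.15). The order of clone 1 and clone 2 rests on 1 array each and on the scaling: clone 1 was above clone 2 for 30 genes with values as deposited and for 18 with spike scaling.

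Other genes of the G2/M phase moved less uniformly. Of 114 tested genes in 7 wider lists of mitotic regulators, cohesins, kinetochore and spindle genes, 12 fell and 4 rose in NIH3T3, where 6.32% of all tested probe sets were called lower and 6.47% higher, and the median change was -0.18. In B16F10 limma called 0 of the 114, against 1.19% of all tested probe sets, and the median was -0.11. Within single lists, kinetochore proteins went both ways in NIH3T3. Zwint, a kinetochore linker, read 3218 in the control and 7256, 9186 and 9165 with PGC7, and rose by 1.40 ± 0.16 (limma, adjusted p = 0.00105). In B16F10, Zwint read 2864 against 2570, 2306 and 2572, and its difference between the lines of 1.60 was called (adjusted p = 0.00613). Cenpk, a constitutive centromere protein, read 1029 against 385, 523 and 385 and fell by 1.25 (adjusted p = 0.00573). The other genes with the largest rises were Pbk, a mitotic kinase (1.00), Cenpb, which binds centromeric satellite DNA (0.75), and Anapc11, a subunit of the anaphase-promoting complex (0.55). The largest falls besides Cenpk were those of Ckap2 (-1.17) and Aspm (-1.08), both spindle proteins, and Ska2 (-0.99), a kinetochore protein. The 38 tested DNA replication genes had medians of -0.16 in NIH3T3, with 5 called lower and 1 higher by limma, and -0.11 in B16F10, with 0 called, beside the same shares of all tested probe sets.

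**Figure D3:**
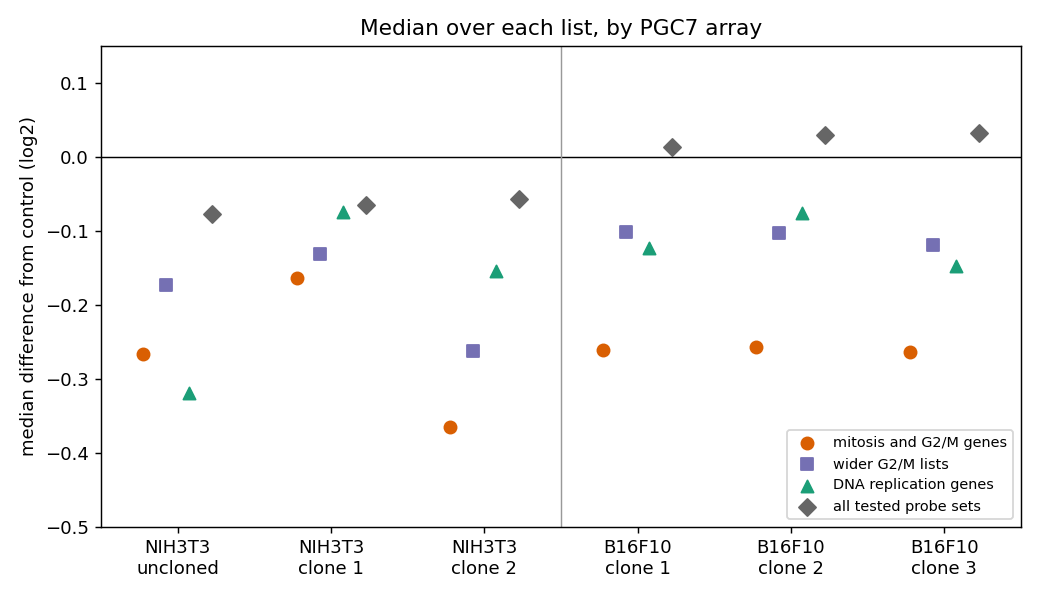
Median log2 change from control over the 48 mitosis and G2/M genes, the wider G2/M lists, the DNA replication genes and all tested probe sets, for each PGC7 array after trimmed-mean scaling. The 48 genes have medians of -0.27, -0.16 and -0.37 in the NIH3T3 arrays and -0.26 in each B16F10 clone, while those of all tested probe sets lie between -0.08 and 0.03. With spike scaling the median of the 48 genes over NIH3T3 is 0.06.

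Of the 48 genes, 32 had several tested probe sets, and their signs were the same in 23 of the 32 for the NIH3T3 change and in 26 for the B16F10 change. The sign differed in NIH3T3 for Nek2, Bub1, Bub3, Pttg1, Cenpf, Aurkb, Kif2c, Tpx2 and Top2a, and in B16F10 for Ttk, Cenpf, Aurkb, Tpx2, Hmmr and Smc4. The call in NIH3T3 differed among probe sets of 9 genes. Foxm1, Ttk, Cenpf, Kif23 and Ncapd2 were called through the brightest probe set and not through another. Racgap1 and Incenp had a dimmer probe set that fell (-0.60 and -1.59) while the brightest was not called. Top2a had 1 that fell by 1.28 (limma, adjusted p = 0.018) where the brightest stood at 0.09, and Anln had 1 that rose by 1.30 (adjusted p = 0.034). Over the 54 tested probe sets that did not represent a gene, 34 lay below control in all 3 NIH3T3 arrays and 32 in all 3 B16F10 clones, with medians of -0.33 and -0.26.

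Apart from PGC7, the genes were at higher signal in the melanoma line. With PGC7 as an additive term, 35 of the 48 were higher in B16F10, against 29.9% of tested probe sets (71.4% in either direction), and 1, Cdc20, was lower (-0.25 ± 0.10, limma, adjusted p = 0.039), against 41.4%. This test took the 4 arrays of a line as replicates, although all but the control were PGC7 cultures of that line. Its p-values thus rest on the spread among related cultures of 1 line of each kind. The median difference was 0.74, or 1.67-fold, where that of all tested probe sets was -0.22. All 4 B16F10 arrays lay above all 4 NIH3T3 arrays for 32 genes, against 26.4%, and below them for 0, against 36.6%. Bright probe sets in general leaned the same way: among the 4975 genes of the same signal range, 44.2% were called higher and the median was 0.21.

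Ccnb2 had the largest difference, 4.31-fold (2.11, adjusted p = 3.77e-07 by limma), followed by Ncapd2 (1.76), Cdc25c (1.66) and Kif23 (1.64). The passenger complex had a median of 1.45, the Cdk1 group 1.12 and condensin 1.08. The partners of the anaphase-promoting complex had 0.10, with Ube2c at 0.03. Foxm1 at 0.04, Anln at 0.10 and Aurka at -0.13 were not called between the lines either. The DNA replication genes stood apart in the same direction, with a median of 0.95. Of the 38, 30 were called higher in B16F10 and 2 lower, against 29.9% and 41.4% of all tested probe sets. These differences depended on the probe set and the scaling: signs were the same among probe sets for 15 of the 32 genes with several. With spikes set equal within each line, 13 genes were called higher. Over all probe sets tested in that setting 18388 were called, 16.1% of them higher. That scaling moved the PGC7 arrays only, so it is not a comparison of the lines at equal spikes. Kif2c was the widest case, at 0.81 through its brightest probe set and at -4.16 through another, which read 1164 to 1388 in NIH3T3 and 59.3 to 64.3 in B16F10. Dimmer probe sets of Kif11 (-2.74), Hmmr (-2.77) and Incenp (-2.75) were likewise called lower in B16F10. Over the 54 probe sets that did not represent a gene, 20 were called higher and 13 lower.

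**Figure D4:**
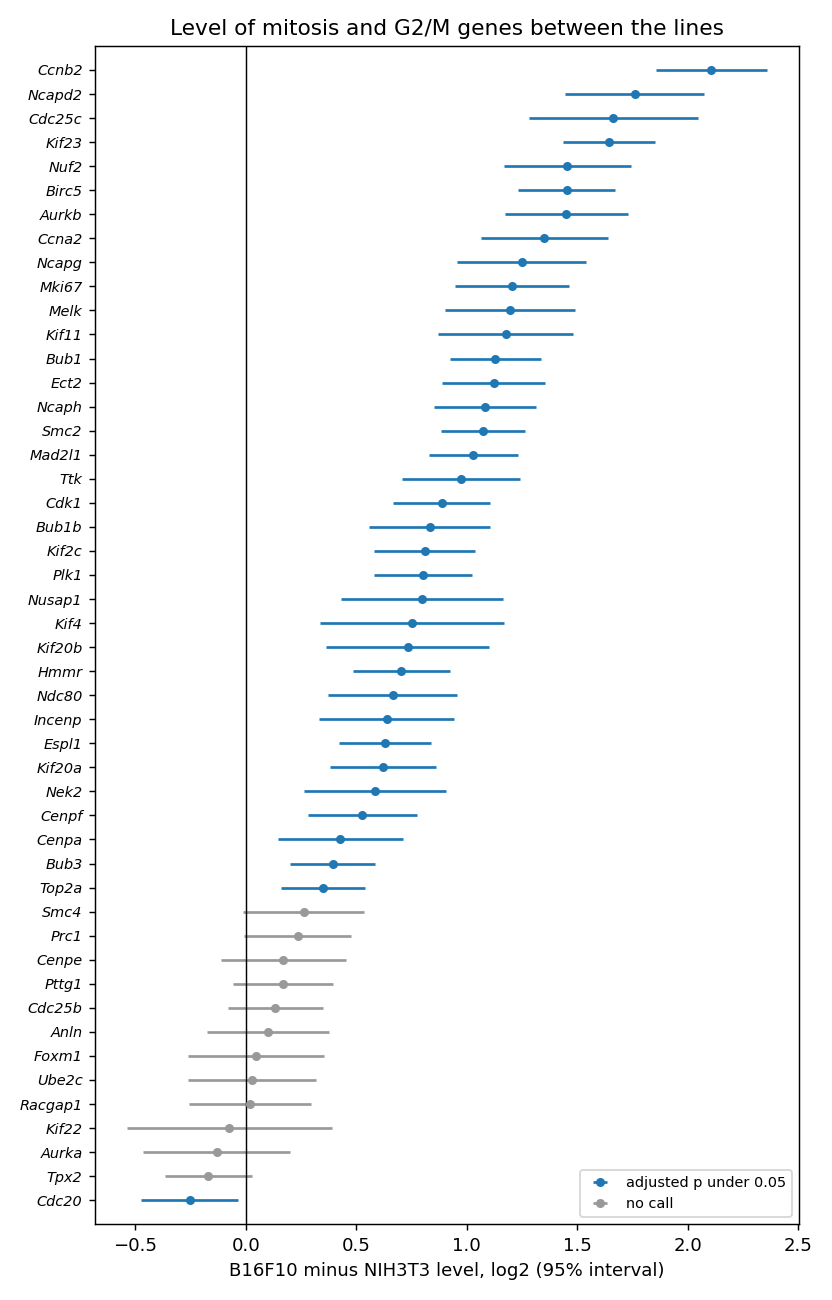
B16F10 minus NIH3T3 level on the log2 scale for the brightest probe set of each gene, sorted, with 95% intervals. Of the 48 genes, 35 are called higher in B16F10, from Ccnb2 at 2.11 to Top2a at 0.35, and Cdc20 is called lower at -0.25. With spikes set equal within each line, but not between the lines, 13 are called higher and 8 lower. Of all probe sets tested in that setting 18388 are called, 16.1% of them higher.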

How the data were processed

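Gene expression was measured in 8 samples, 1 Affymetrix array each. The authors deposited linear-scale intensity values for each probe set, which MAS5 produced per the submitters' processing notes, with a version not given in the sources used here. Each array was rescaled to a trimmed mean of 500 (2% removed at each end), with factors of 2.65 to 3.49 for NIH3T3 and 1 for B16F10. Signals were taken as log2(signal + 9). Of 45101 probe sets, 64 controls were left out, as were 19801 whose mean lay under the median signal (49.3) in both lines. Symbols came from the platform annotation: 34958 probe sets had 1 symbol, 932 several and 9211 none.

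limma 3.58.1 in R 4.3.3 fitted means of the 4 groups on all 8 arrays (lmFit, contrasts.fit, eBayes with trend), two-sided, with Benjamini-Hochberg adjustment over all 25236 tested probe sets and calls at an adjusted p under 0.05. The spread of the lone controls is borrowed from the PGC7 arrays. The level between lines was fitted with an additive PGC7 term. The scripts were tested on simulated data.

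The genes, the wider lists and the tests were chosen with earlier results of these data known. All genes of the list are named. Values on each array are printed for genes called in a change within a line or in the difference between lines, for the 5 largest rises and falls of each line and for the Cdk1 group. Of the wider lists, up to 4 called rises and 4 called falls per line are named. Alternatives were other pseudocounts (1 and 32), no filter, quantile scaling, values as deposited, spike scaling within each line, no variance trend, the mean of a gene's probe sets, each line alone, leaving out each PGC7 array, and the clone number as a block. Clone numbers 1 and 2 occur in both lines, but they name clones of different lines, and deviations of same-numbered arrays correlated at 0.00917 and -0.0972.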

Additional observations from a re-analysis of the deposited data

Results flagged for a closer look

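The change with PGC7 was called different between NIH3T3 and B16F10 for 3 of the 48 genes (6.25%) by limma's test of the difference itself. This share is near that of all tested probe sets, 6.88% in either direction and 3.08% higher. Among the 4975 genes of the same signal range, 11.1% were called in either direction and 6.19% higher. The NIH3T3 change minus the B16F10 change was 0.80 on the log2 scale for Aurka, the spindle pole kinase (adjusted p = 0.0458). For Ube2c, the ubiquitin-conjugating enzyme of the anaphase-promoting complex, it was 0.74 (limma, adjusted p = 0.0294). For Anln, the contractile ring scaffold, it was 0.68 (limma, adjusted p = 0.0412). All 3 NIH3T3 PGC7 arrays lay above their control and all 3 B16F10 clones below theirs for each of these genes, although Anln in NIH3T3 clone 2 was at control (5963 against 5953). No change within a line was called through the brightest probe set. A dimmer Anln probe set was called higher in NIH3T3 (1.30, limma, adjusted p = 0.0341). The calls were kept in 5 (Aurka), 7 (Ube2c) and 7 (Anln) of 15 alternative settings, and the sign in all 15. No group had 4 or more samples, so no sample was tested against the others of its group.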

How the results depend on the processing

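Counts of called genes moved with the scaling and with the fit. Poly-A spike scaling moved the median over every tested probe set to 0.26 (NIH3T3, otherwise -0.07) and -0.51 (B16F10, otherwise 0.02), values as deposited to -0.19 in NIH3T3, and quantile scaling to -0.02 in B16F10. With spikes, the median of the 48 genes in NIH3T3 reversed to 0.0571, with 0 lower and 2 higher calls and 11 genes below control in all 3 arrays. In B16F10 33 were called lower, where 2826 of the probe sets tested in that setting were called. The difference gave 21 higher calls, where 6738 of the tested probe sets were called, 94.7% of them higher. Clone 1 of NIH3T3 lay above clone 2 for 18 genes. The level between lines gave 13 higher and 8 lower calls, with spikes set equal within each line only. Over all tested probe sets 18388 were called there, 16.1% of them higher. The share of NIH3T3 calls that were higher, over all tested probe sets, was 50.6% with trimmed-mean, 55.2% with quantile, 36.7% with deposited and 81.6% with spike scaling, and in B16F10 77.7%, 78.2%, 86.7% and 5.24%. Lower NIH3T3 calls, 10 in the reported setting, numbered 1 without a variance trend and 0 with NIH3T3 alone. Higher NIH3T3 calls, 0 as reported, numbered 1 with a pseudocount of 32 and 2 with the mean over probe sets. B16F10 alone gave 11 lower and 2 higher calls, where 2196 of all tested probe sets were called. The difference, with 3 higher calls as reported, gave 0 with no filter, as deposited and without a trend. Lower line calls, 1 as reported, numbered 0 with no filter, as deposited and without a trend, 2 with quantile scaling and 6 with the mean over probe sets.

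With the clone number as a replicate block, 2 genes were called lower in NIH3T3 (Kif20a and Ncapd2), 0 in the difference and 0 as lower between lines. The 2 shared numbers do not pair the samples.

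Leaving out each PGC7 array in turn gave 5 to 13 lower and 0 to 2 higher calls in NIH3T3, 0 to 6 lower in B16F10, 0 to 4 higher and 0 to 2 lower in the difference, and 0 to 1 lower between lines. No control could be left out. The signs of the 10 NIH3T3 falls held in all 16 alternatives, and the call was kept in 14 for Kif20a, 12 for Smc4, 11 each for Melk, Mad2l1, Cenpf and Kif23, 8 for Foxm1 and Ncapd2, 7 for Ttk and 6 for Mki67.

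Line differences that reversed were Cdc20 as deposited (1.33), then with spikes set equal within each line Nek2 (-0.0664), Bub3 (-0.26), Espl1 (-0.0206), Cenpa (-0.22), Cenpf (-0.12), Incenp (-0.0128), Kif20a (-0.0291) and Top2a (-0.30), and with the mean over probe sets Ttk (-0.12), Cenpf (-0.0713), Incenp (-0.48), Kif11 (-0.34), Kif2c (-1.63) and Hmmr (-0.46). The cause was not tested. The 8 arrays limit precision: a 95% interval of a change within a line extended a median of 0.34 to each side.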
